A study of Mus musculus with 9 samples.

Results

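The genes described here encode 40 dioxygenases that use 2-oxoglutarate, molecular oxygen and ferrous iron and that lie outside collagen synthesis. They were taken by name from a list of TET, JmjC and ALKBH enzymes, HIF hydroxylases and related enzymes. No expression value entered this rule, but the list was drawn up with earlier results of these data known. Of the 40 genes, 39 had a probe set with a single gene symbol, out of 19938 genes on the array, and the probe set of Alkbh1 was annotated to several genes and was not used. Each enzyme of this superfamily couples the oxidation of its substrate to the decarboxylation of 2-oxoglutarate to succinate, and ascorbate helps to return the iron to its ferrous state in many of them. The collagen prolyl 4-hydroxylases, which fail in scurvy, belong to the same superfamily. The TET enzymes oxidise 5-methylcytosine in DNA, most JmjC enzymes remove methyl groups from histone lysines, the ALKBH enzymes and FTO mostly act on alkylated or methylated nucleic acids, and the EGLN enzymes hydroxylate prolines of HIF-α so that it is degraded in the presence of oxygen.

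Mouse embryonic fibroblasts (MEFs) of 3 genotypes were profiled by microarray (Affymetrix Gene ST), 3 arrays to a genotype. As labelled, they were wild-type cells (WT), a double mutant of ERO1alpha and ERO1beta (DM) and the same double mutant combined with a PRDX4 knockout (TM), all on a C57B/L6 background and all transformed with T antigen. ERO1 and PRDX4 are thiol oxidases of the endoplasmic reticulum, and the study asked why losing all 3 costs the mice so much fitness when disulfide formation is slowed only slightly. The methods describe the ERO1 alleles as carried by both mutants in homozygous form, the PRDX4 allele as X-linked, and the control embryos as heterozygous for the ERO1α allele and homozygous for the ERO1β allele, so what the labels call wild type may not be free of mutant alleles. The methods use primary MEFs in some experiments and lines carrying SV-40 large T antigen in others, leaving unsaid which of them gave the array RNA. Nothing in the sources used here ties the 3 arrays of a genotype to separate cultures or to more than 1 line. The p-values therefore measure array spread only, and that spread may be technical.

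The deposited values were log2 RMA levels, and all levels below are on that scale. Array medians were 7.62 to 7.72, and the correlation across genes was 0.997 to 0.999 within a genotype and 0.971 to 0.979 between genotypes. Ero1a fell by 2.40 in DM and by 2.80 in TM MEFs, and Prdx4 fell by 4.26 in TM, while Ero1b had log2 fold changes of 0.055 and 0.29. Xist, which coats an inactivated X chromosome, was 5.70 in WT, 12.56 in DM and 5.72 in TM MEFs, and the Y-linked Eif2s3y had a log2 fold change of -2.01 in DM and 0.062 in TM. The methods write the control MEFs as +/+ at the X-linked PRDX4 gene, a female genotype as written. The WT arrays, with Xist low and Eif2s3y at 10.24, do not match it. The fibroblast markers did not behave alike. Vim was nearly level, at 14.18, 14.16 and 14.15 in WT, DM and TM, while S100a4 fell by 2.28 in DM and by 1.46 in TM and Dcn rose by 1.14 and 1.83. Lum was dim in WT and DM, at 4.80, 4.91 and 6.86, and Thy1 was 7.675, 7.423 and 10.605. Against WT, 5 of 13 fibroblast markers were called in DM (2 higher, 3 lower) and 6 of 13 in TM (5 higher, 1 lower). Pdgfra had a log2 fold change of -1.92 in DM. Of 9 mesothelial and simple epithelial markers 5 rose and 1 fell in DM and 2 fell in TM, and their mean level was 8.03 to 8.05 in WT, 9.81 to 9.91 in DM and 7.30 to 7.45 in TM arrays. Of the 6 smooth muscle and pericyte markers, at a mean level of 8.41 to 8.48 in WT and 9.39 to 9.43 in TM arrays, 2 rose in TM and none was called in DM, where also none was past 1.5-fold at an unadjusted p under 0.05, and none of the endothelial, macrophage and leukocyte or skeletal muscle markers was called in either mutant, by adjusted or unadjusted p. Of all genes, 10.9% were called in either direction in DM and 9.15% in TM against WT. The part of these marker differences in the results below was not tested. In bulk RNA, fewer cells of a type and less RNA per cell cannot be told apart.

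A difference passed the test at a Benjamini-Hochberg adjusted p under 0.05 in a limma fit of all 9 arrays and all genes, and it was called higher or lower where it was also over 1.5-fold (0.585 on the log2 scale). No dioxygenase gene differed by 2-fold between any genotypes, and the largest difference, that of Tet3 between TM and WT, was -0.90. The share of all genes past 2-fold was not counted. The members' median absolute log2 change was 0.235 in DM and 0.223 in TM against WT, beside 0.138 and 0.114 over all genes. Between TM and DM it was 0.166, beside 0.134. In DM against WT, 1 of the 39 was called higher and 1 lower, beside 5.28% and 5.67% of all genes. In TM against WT, 1 was called higher and 4 lower, beside 5.59% and 3.56% of all genes, and in TM against DM none was called higher and 4 lower, beside 4.68% and 3.61%. In either direction 10.9%, 9.15% and 8.29% of all genes were called in the 3 comparisons. No member was past 1.5-fold and higher in TM than in DM at an unadjusted p under 0.05 either. At any size of change, a larger share of the members passed than of all genes. Most members were brighter than the median gene, which was at 8.105, and the part of level in this was not tested. In DM 14 were lower and 7 higher than in WT, beside 19.8% and 17% of all genes, or 53.8% of the members beside 36.8%. In TM 19 were lower and 3 higher, beside 18% and 13.8%, or 56.4% beside 31.8%. Between the mutants 14 were lower and 5 higher in TM, beside 16.5% and 15.4%, or 48.7% beside 31.8%. The arrays of 25 members did not overlap between DM and WT, of 25 between TM and WT and of 22 between TM and DM, beside 46.4%, 43.4% and 40.1% of all genes. The median log2 fold change of the members was -0.11 in DM, -0.20 in TM and -0.094 between TM and DM, beside 0.025, -0.029 and -0.046 over all genes. Both comparisons with WT use the same 3 WT arrays.

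**Figure D1:**
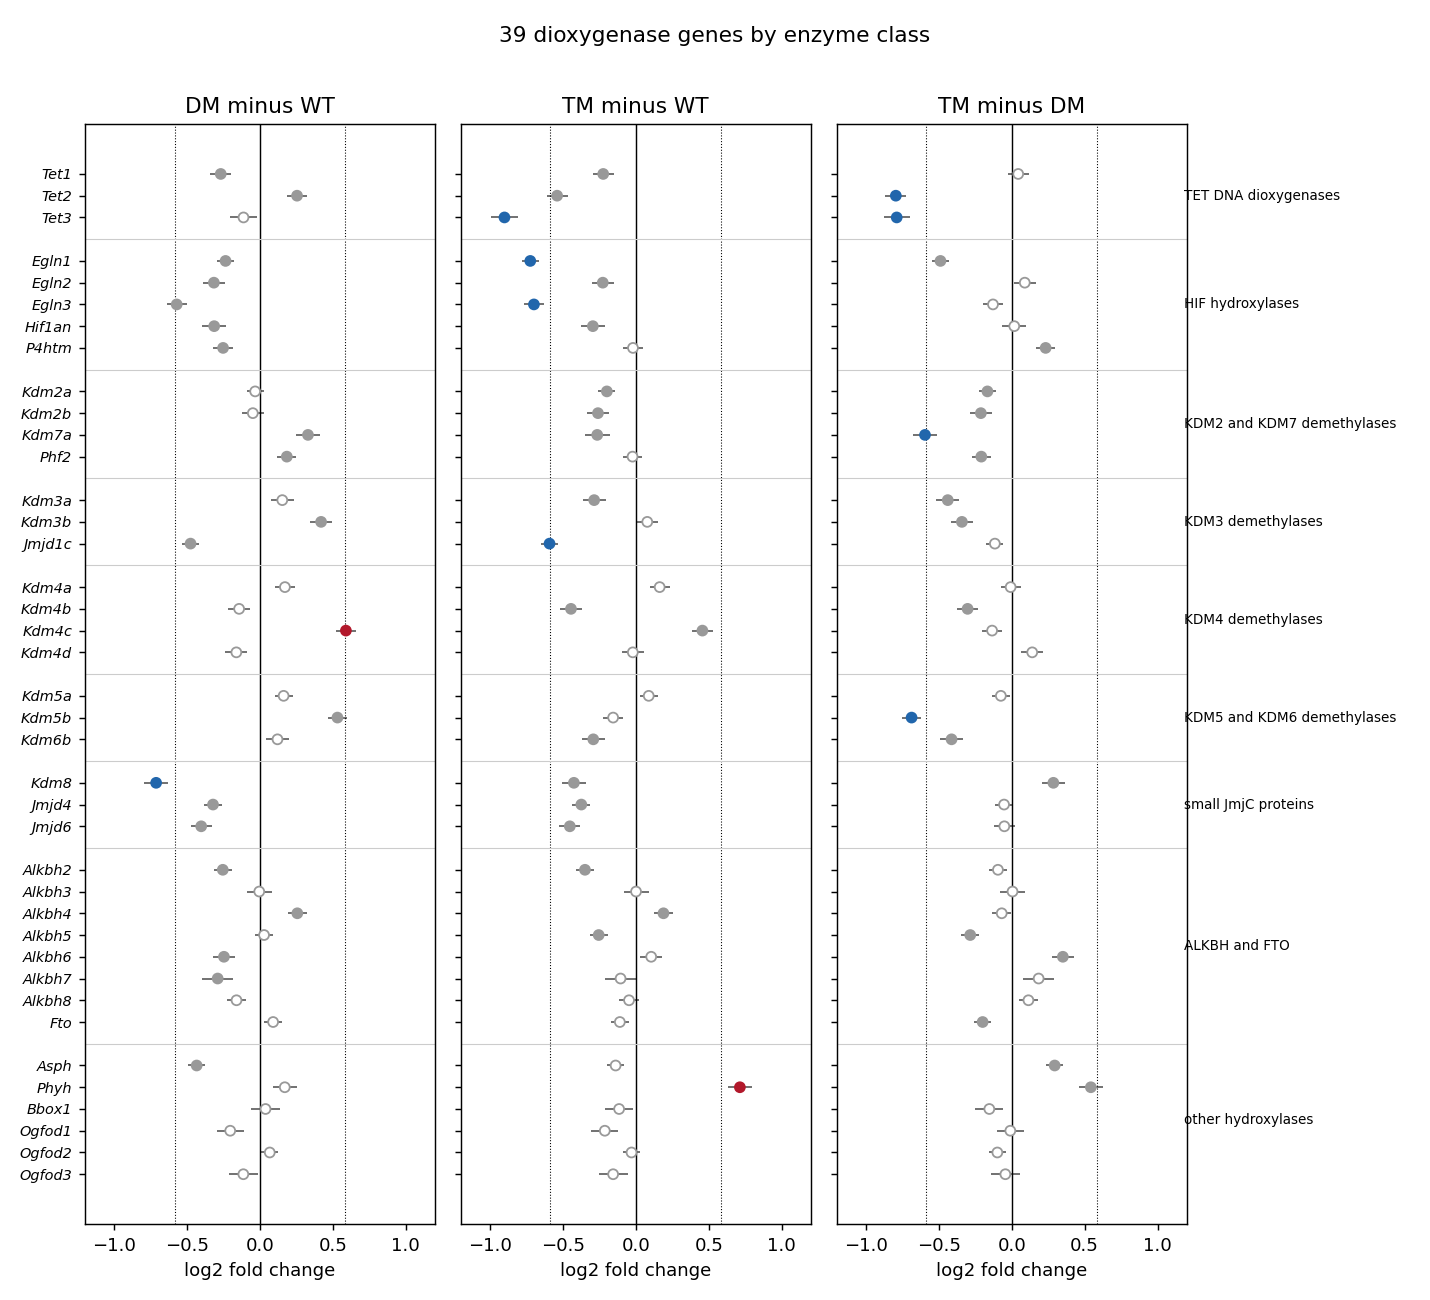
Log2 fold changes (x axis) of the 39 dioxygenase genes, 1 row per gene and grouped by enzyme class, for DM minus WT, TM minus WT and TM minus DM. Bars are the standard errors of the limma fit (n = 3 arrays a genotype), dotted lines mark 1.5-fold, open points did not pass the test, grey points passed below 1.5-fold, and blue and red points were called lower and higher. No gene reaches 1 in either direction, and all 5 HIF hydroxylases lie left of 0 in both comparisons with WT, though 4 of 5 in TM with cyclic loess.

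All 5 HIF hydroxylase genes were lower in DM than in WT MEFs and 4 of the 5 were lower in TM, by little in most cases, but with quantile normalization or cyclic loess 4 passed in DM and 3 in TM. EGLN1, EGLN2 and EGLN3 are the prolyl hydroxylases that mark HIF-α for destruction, HIF1AN is the asparaginyl hydroxylase that blocks its transactivation, and P4HTM is a transmembrane prolyl hydroxylase of the endoplasmic reticulum. These differences passed at an adjusted p under 0.05, beside the 19.8% and 18% of all genes given above. Only Egln1 and Egln3 were called, both in TM. The median log2 fold change of the class was -0.31 in DM and -0.29 in TM.

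Egln1, the main oxygen sensor of most cells, was 11.08, 11.10 and 11.05 in the WT arrays, 10.83, 10.84 and 10.85 in DM, and 10.29, 10.33 and 10.44 in TM. The levels of the 3 genotypes did not overlap in the deposited values, and TM was lowest. Its log2 fold change was -0.24 in DM (SE 0.057, adjusted p = 0.0055, limma) and -0.72 in TM (SE 0.057, adjusted p = 6.08e-07, limma), and TM was below DM by a log2 difference of -0.49 (adjusted p = 2.57e-05, limma). The DM difference of Egln1 was smaller and did not pass with quantile normalization, at -0.15 (adjusted p = 0.064, limma), or with cyclic loess, at -0.14 (adjusted p = 0.0805, limma), while its TM difference passed with both, at -0.66 and -0.64. Egln3, the isoform that hypoxia induces most strongly in many cells, was 9.81, 9.87 and 9.68 in WT, 9.15, 9.22 and 9.27 in DM, and 9.15, 8.98 and 9.12 in TM. All 6 mutant arrays were below the WT arrays. Its log2 fold change was -0.57 in DM (SE 0.070, adjusted p = 3.01e-05, limma), just inside 1.5-fold, and -0.70 in TM (SE 0.070, adjusted p = 5.79e-06, limma), and the mutants differed by -0.13 (adjusted p = 0.186, limma). The DM difference of Egln3 was past 1.5-fold, at -0.66, when arrays were centred on their medians.

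Egln2, the least oxygen-regulated isoform at the mRNA level, was 11.13, 11.11 and 11.26 in WT, 10.93, 10.72 and 10.89 in DM, and 11.07, 10.88 and 10.87 in TM. Each mutant array lay below each WT array, by little in the first TM array. Its log2 fold changes were -0.32 in DM (adjusted p = 0.00592, limma) and -0.23 in TM (adjusted p = 0.0411, limma), where quantile normalization gave -0.16 (adjusted p = 0.103, limma) and cyclic loess -0.15 (adjusted p = 0.146, limma). Hif1an was 9.50, 9.58 and 9.38 in WT, 9.15, 9.05 and 9.31 in DM, and 9.30, 9.16 and 9.10 in TM, with differences of -0.31 (adjusted p = 0.00978, limma) and -0.29 (adjusted p = 0.0156, limma). P4htm was 7.68, 7.58 and 7.63 in WT, 7.26, 7.44 and 7.42 in DM, and 7.64, 7.66 and 7.52 in TM. It was thus lower in DM alone among the mutants against WT, by -0.25 (adjusted p = 0.00978, limma), with -0.019 in TM, and TM was above DM by 0.23 (adjusted p = 0.018, limma). The TM value of P4htm turned above 0 with cyclic loess normalization, where 4 of the 5 genes stayed below 0. In TM only 2 of the 5 passed without the second WT array, without the second TM array or without the third TM array.

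**Figure D2:**
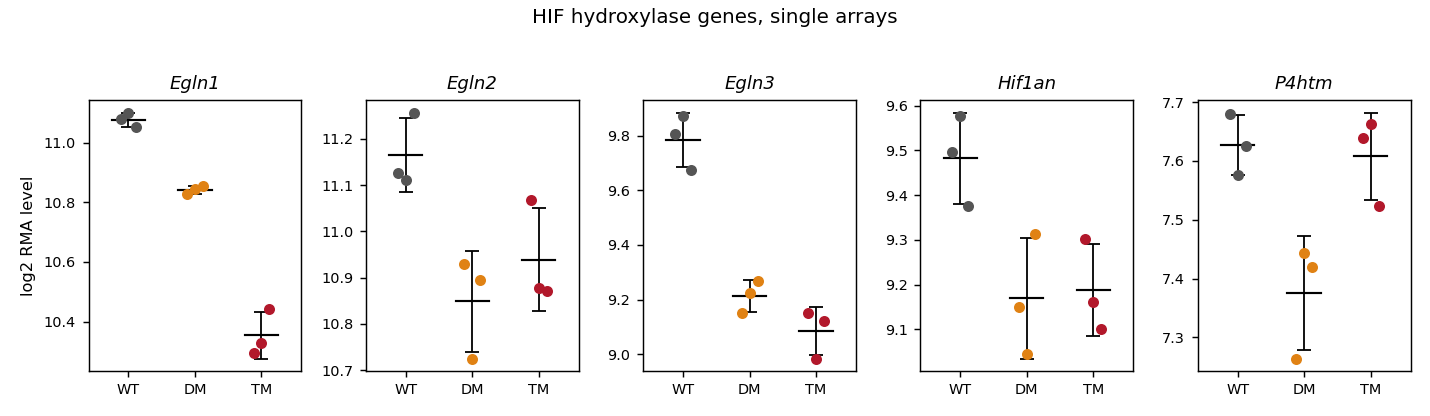
Log2 RMA levels of the 5 HIF hydroxylase genes in WT (grey), DM (orange) and TM (red) MEFs, with a separate y axis for each gene. Each point is an array, and the line and bar give the mean and SD of the 3 arrays. Egln1 has means of 11.08 in WT, 10.84 in DM and 10.35 in TM, of which the step from WT to DM did not pass under 2 of the 3 other scalings, and Egln3 is lower in all 6 mutant arrays.

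HIF binds a core of ACGTG or GCGTG, and some of the hydroxylase genes are themselves HIF targets. The 250 bases before the start of each gene, from RefSeq on GRCm38.p6, were searched for both cores on both strands, counting overlapping matches. Such a window was given for 33 of the 40 members. Of the 43 member windows, 22 held at least 1 core (51.2%), beside 38.6% of all 32851 promoter windows of this length. Among the HIF hydroxylases, a core was found before Egln1, Egln2 and Egln3, and these letters are not in the windows of Hif1an and P4htm. The windows of the EGLN genes are shown because they are the members of this class whose window holds a core, with the cores in capitals, 5′ to 3′ on the gene's strand. That of Egln1 is chr8:124949255-124949504, that of Egln3 is chr12:54203875-54204124 and that of the more upstream start of Egln2 is chr7:27166803-27167052, all on the minus strand.
Egln1: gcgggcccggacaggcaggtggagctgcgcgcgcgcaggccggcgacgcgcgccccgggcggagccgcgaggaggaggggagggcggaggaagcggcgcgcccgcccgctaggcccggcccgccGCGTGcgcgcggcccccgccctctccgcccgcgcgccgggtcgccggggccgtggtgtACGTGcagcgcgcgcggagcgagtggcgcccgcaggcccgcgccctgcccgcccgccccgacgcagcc
Egln2: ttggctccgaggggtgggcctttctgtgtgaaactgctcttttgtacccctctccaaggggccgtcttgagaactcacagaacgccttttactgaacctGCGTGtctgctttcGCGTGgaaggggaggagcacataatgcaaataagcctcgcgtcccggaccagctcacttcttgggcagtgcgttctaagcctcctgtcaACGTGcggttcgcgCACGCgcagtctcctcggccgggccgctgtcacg
Egln3: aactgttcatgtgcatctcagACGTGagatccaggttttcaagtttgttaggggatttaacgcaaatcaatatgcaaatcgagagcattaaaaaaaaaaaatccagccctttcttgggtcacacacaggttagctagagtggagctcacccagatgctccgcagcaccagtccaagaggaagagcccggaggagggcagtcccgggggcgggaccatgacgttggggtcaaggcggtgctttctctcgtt
The Egln1 window holds 2 cores, which begin 126 and 68 bases before the start, that of Egln2 holds 4, and that of Egln3 holds 1, which begins 229 bases before it. A match describes these letters and not a bound site.

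Other genes of the HIF pathway were measured on the same arrays. Of 24 measured HIF targets, a list that leaves out the hydroxylases and Ero1a, 6 fell and 1 rose in DM, and 6 fell and 1 rose in TM, beside the shares of all genes called given above. At any fold 16 were lower and 1 higher in DM, beside 19.8% and 17% of all genes, and 19 were lower and 2 higher in TM, beside 18% and 13.8%. Their median log2 fold changes were -0.37 and -0.45, beside 0.025 and -0.029 over all genes. Ndrg1, a stress-responsive gene, fell by 1.34 in DM and by 1.36 in TM. Bnip3, which encodes a mitophagy receptor, fell by 0.63 and by 1.43. Pdk1, the kinase that inhibits pyruvate dehydrogenase, had -0.19 in DM (adjusted p = 0.064, limma) and fell by 1.36 in TM. The peptide hormone gene Adm went both ways, with -0.71 in DM and a rise of 1.78 in TM, and the glycolytic regulator gene Pfkfb3 rose by 0.69 in DM. With median centring 10 of the 24 were called lower in DM. Of the 7 HIF subunits and partners, 28.6% were called in DM and 28.6% in TM, beside 10.9% and 9.15% of all genes. Arnt2 rose by 1.210 in DM and 1.497 in TM. Epas1, which encodes HIF-2α, had -0.32 in DM (adjusted p = 0.0111, limma) and rose by 0.62 in TM. Cited2, which encodes an inhibitor of HIF transactivation, fell by 0.73 in DM and had 0.19 in TM (adjusted p = 0.0188, limma). Hif1a itself was 0.36 and 0.51 above WT in DM and TM (adjusted p = 0.000638 and 4.16e-05, limma), below 1.5-fold, while Vhl, the ubiquitin ligase subunit that reads the hydroxyl mark, had -0.095 and -0.27 (adjusted p = 0.347 and 0.0137, limma). The mRNA of a hydroxylase does not measure its activity, nor the mRNA of Hif1a the amount of protein.

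**Figure D3:**
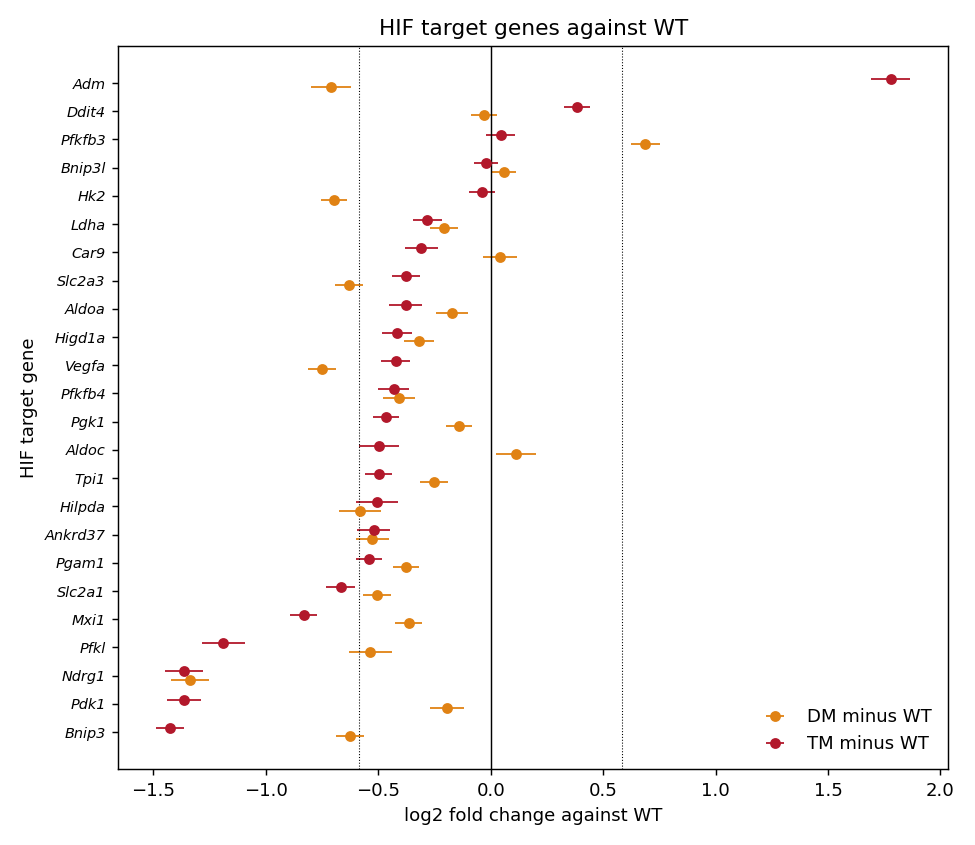
Log2 fold changes against WT (x axis) of the 24 measured HIF target genes in DM (orange) and TM (red) MEFs, ordered by the TM value. Bars are standard errors of the limma fit (n = 3 arrays a genotype) and dotted lines mark 1.5-fold. Most points lie left of 0, 20 in DM and 21 in TM, and Adm lies far to the right in TM alone.

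Of the TET genes, Tet2 and Tet3 were lower in TM than in both other genotypes. Tet2 was 9.48, 9.55 and 9.51 in WT, 9.60, 9.89 and 9.81 in DM, and 8.97, 8.98 and 8.97 in TM. The 3 groups did not overlap, with DM highest and TM lowest. Its difference from WT was 0.26 in DM (SE 0.072, adjusted p = 0.0138, limma) and -0.54 in TM (SE 0.072, adjusted p = 7.34e-05, limma), both below 1.5-fold, and TM was called lower than DM, with a log2 fold change of -0.79 (adjusted p = 2.49e-06, limma). With median centring the TM difference from WT was past 1.5-fold, at -0.62, and the DM difference was 0.17 and did not pass (adjusted p = 0.094, limma). Tet3 was 9.848, 9.956 and 9.962 in WT, 9.737, 10.003 and 9.689 in DM, and 9.164, 9.001 and 8.901 in TM. The WT and DM arrays overlapped and the TM arrays lay below both. It was called lower in TM than in WT, with -0.90 (SE 0.090, adjusted p = 5.93e-06, limma), and than in DM, with -0.79 (SE 0.090, adjusted p = 2.18e-05, limma). A dimmer probe set of Tet3 gave -0.49 and -0.50 in the same comparisons (adjusted p = 0.000253 and 0.000241, limma over probe sets), so its direction was shared and its size was below 1.5-fold. Tet1, the isoform of stem cells, was 8.70, 8.74 and 8.76 in WT, 8.36, 8.63 and 8.41 in DM, and 8.51, 8.46 and 8.57 in TM. It was lower in both mutants, by -0.27 (adjusted p = 0.0103, limma) and -0.22 (adjusted p = 0.0312, limma), and its other probe sets gave -0.24 and -0.43 in both. Its TM difference did not pass with cyclic loess, at -0.18 (adjusted p = 0.0828, limma).

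The histone demethylases did not move as a block. The KDM3 family removes mono- and dimethyl marks from lysine 9 of histone H3. Jmjd1c was 11.01, 11.07 and 10.98 in WT, 10.50, 10.62 and 10.52 in DM, and 10.45, 10.39 and 10.46 in TM, so that all mutant arrays lay below WT. Its log2 fold change was -0.48 in DM (adjusted p = 2.86e-05, limma) and -0.59 in TM (adjusted p = 4.76e-06, limma), which is barely past 1.5-fold. A second probe set gave -0.073 and -0.26 (adjusted p = 0.353 and 0.00344, limma over probe sets), and the TM call was lost with the mean of both probe sets (-0.43), with quantile normalization (-0.53), with cyclic loess (-0.51), without the second WT array (-0.57) or without the second TM array (-0.57). Kdm3b was 10.71, 10.78 and 10.73 in WT, 11.21, 11.28 and 10.99 in DM, and 10.86, 10.86 and 10.74 in TM. It went the other way from Jmjd1c in DM, with 0.42 (adjusted p = 0.000646, limma), and had 0.079 in TM. Kdm3a, itself a HIF target, was lower in TM than in WT, by -0.29 (adjusted p = 0.0141, limma), and than in DM, by -0.44 (adjusted p = 0.00089, limma). The first did not pass with cyclic loess, at -0.20 (adjusted p = 0.0615, limma).

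The KDM4 enzymes act on trimethylated lysines 9 and 36 of H3. Kdm4c was 8.98, 9.01 and 8.93 in WT, 9.51, 9.46 and 9.72 in DM, and 9.45, 9.39 and 9.45 in TM. It was higher in all 6 mutant arrays than in any WT array. It was called higher in DM, at 0.59 (SE 0.070, adjusted p = 2.44e-05, limma), and was 0.46 above WT in TM (adjusted p = 0.00025, limma). The DM call lay at the edge of the threshold and was lost with median centring (0.50), without the third WT array (0.57) or without the third DM array (0.51). Kdm4b moved the other way in TM, with -0.44 (adjusted p = 0.000448, limma) and -0.14 in DM (adjusted p = 0.159, limma). Kdm4a and Kdm4d did not pass in any comparison, and Kdm4d, a gene of the testis, was dim, at 6.35 to 6.71 over the 9 arrays.

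Several genes of the KDM5, KDM6, KDM2 and KDM7 families were lower in TM than in DM. Kdm5b, which encodes a demethylase of lysine 4 of H3, was 9.68, 9.70 and 9.68 in WT, 10.10, 10.19 and 10.36 in DM, and 9.52, 9.52 and 9.56 in TM. DM was highest and the groups did not overlap. It was 0.53 above WT in DM (SE 0.066, adjusted p = 3.67e-05, limma), with -0.16 in TM (adjusted p = 0.103, limma), and was called lower in TM than in DM, by -0.69 (adjusted p = 4.83e-06, limma). Kdm7a, a demethylase of lysines 9 and 27 of H3, was 8.81, 9.05 and 8.93 in WT, 9.22, 9.32 and 9.24 in DM, and 8.58, 8.57 and 8.85 in TM. It was 0.33 above WT in DM (adjusted p = 0.00817, limma) and had -0.26 in TM (adjusted p = 0.0308, limma), though the WT and TM arrays overlapped. The DM difference was 0.15 with the mean of its probe sets and the TM difference -0.21 with cyclic loess, and neither passed (adjusted p = 0.0882 and 0.0844, limma). Its call between the mutants, at -0.59 (adjusted p = 0.000146, limma), was lost with median centring (-0.58), with cyclic loess (-0.57), with the mean of both of its probe sets (-0.42), without the second DM array (-0.57), without the first TM array (-0.55) or without the second TM array (-0.55). Its second probe set gave -0.019 in DM, -0.27 in TM and -0.25 between them (adjusted p = 0.9, 0.0489 and 0.0652, limma over probe sets). Kdm6b, a demethylase of lysine 27 of H3, was lower in TM than in WT, by -0.29 (adjusted p = 0.0117, limma), and than in DM, by -0.41 (adjusted p = 0.0013, limma). With cyclic loess its difference from WT was -0.21 and did not pass (adjusted p = 0.0704, limma). Kdm2a and Kdm2b, which act on lysine 36 of H3, were lower in TM than in WT, by -0.20 and -0.26 (adjusted p = 0.0202 and 0.0183, limma), though Kdm2a did not pass with quantile normalization (-0.14) or cyclic loess (-0.12). Phf2, a relative of Kdm7a, had 0.19 in DM, which passed narrowly (adjusted p = 0.0451, limma) and did not pass with median centring, at 0.095 (adjusted p = 0.278, limma). Kdm5a did not pass in any comparison.

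All 3 genes of small JmjC proteins passed as lower in both mutants, beside 19.8% of all genes in DM and 18% in TM. Kdm8, a JmjC hydroxylase, was 8.98, 9.07 and 9.05 in WT, 8.27, 8.31 and 8.38 in DM, and 8.76, 8.65 and 8.42 in TM. It was the only member called lower in DM with the deposited scaling, by -0.71 (SE 0.080, adjusted p = 1.53e-05, limma), and had -0.42 in TM (adjusted p = 0.00122, limma). The TM arrays lay between the other genotypes and spread over 0.17 (SD). Jmjd6, a lysyl hydroxylase of splicing factors, had -0.40 in DM (adjusted p = 0.000681, limma) and -0.45 in TM (adjusted p = 0.000328, limma). Jmjd4, which hydroxylates the translation termination factor eRF1, had -0.32 (adjusted p = 0.00123, limma) and -0.37 (adjusted p = 0.000462, limma). For all 3 genes every mutant array lay below every WT array. Over all genes, arrays did not overlap in either direction for 46.4% in DM and 43.4% in TM against WT.

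**Figure D4:**
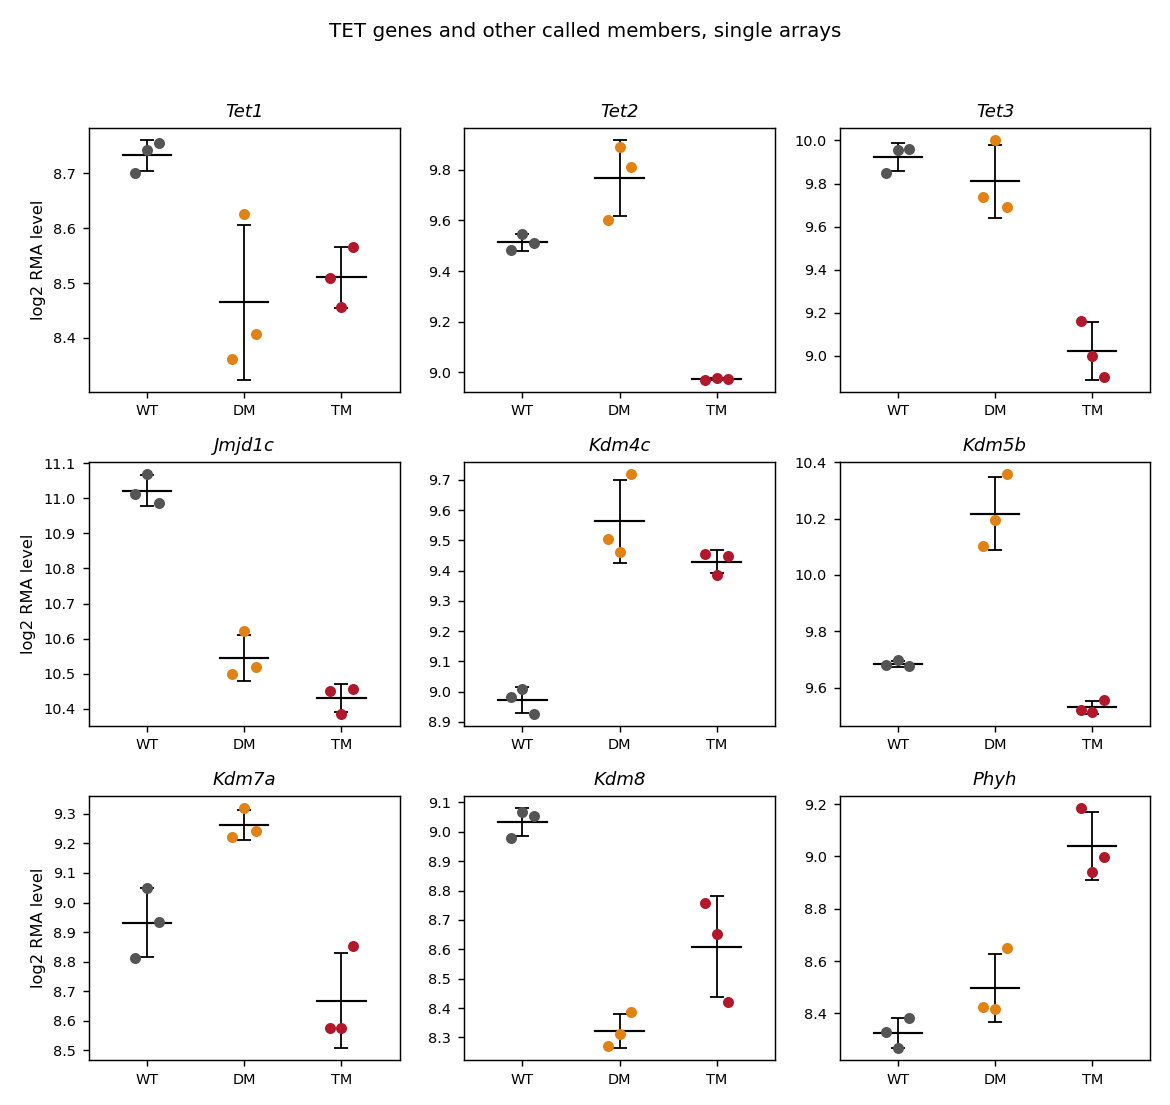
Log2 RMA levels of the 3 TET genes and of the called members outside the HIF hydroxylases in WT (grey), DM (orange) and TM (red) MEFs, with a separate y axis for each gene. Each point is an array, and the line and bar give the mean and SD of the 3 arrays. Tet2, Kdm5b and Kdm7a are highest in DM and lowest in TM, Kdm8 is lowest in DM, and Phyh is highest in TM.

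No ALKBH gene was called in any comparison, and none of the 8 measured genes of this class was past 1.5-fold at an unadjusted p under 0.05. Alkbh2, which repairs alkylated DNA, was 9.15, 9.05 and 9.03 in WT, 8.84, 8.88 and 8.76 in DM, and 8.73, 8.81 and 8.65 in TM. It was lower in both mutants, by -0.25 (adjusted p = 0.00684, limma) and -0.35 (adjusted p = 0.000929, limma). The N6-methyladenosine demethylase gene Alkbh5 had 0.029 in DM and -0.25 in TM (adjusted p = 0.755 and 0.00667, limma). Fto, the other RNA demethylase of this mark, had 0.091 and -0.11 against WT (adjusted p = 0.279 and 0.218, limma), and was lower in TM than in DM, by -0.20 (adjusted p = 0.0246, limma). Alkbh4 was 0.26 above WT in DM (adjusted p = 0.0073, limma) and 0.19 above it in TM (adjusted p = 0.0418, limma), but its 3 TM arrays hold 1 identical value of 9.47, so its spread there is understated, and with median centring neither difference passed, at 0.17 and 0.11 (adjusted p = 0.055 and 0.177, limma). Alkbh6 was lower in DM than in WT, by -0.25 (adjusted p = 0.0239, limma), and than in TM, which was above it by 0.35 (adjusted p = 0.00354, limma). The DM difference of Alkbh6 did not pass with quantile normalization (-0.18) or cyclic loess (-0.15). Alkbh7, which takes part in necrosis, was lower in DM, by -0.29 (adjusted p = 0.0474, limma), which did not pass with cyclic loess (-0.27), while Alkbh3 and Alkbh8 did not pass in any comparison. Alkbh3 had differences of -0.004 and 0.002 against WT, each with an SE of 0.086.

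Among the remaining hydroxylases Phyh rose. It encodes the peroxisomal phytanoyl-CoA hydroxylase of fatty acid α-oxidation, and was 8.327, 8.268 and 8.383 in WT, 8.424, 8.418 and 8.649 in DM, and 9.185, 8.939 and 8.996 in TM. The TM arrays lay above all others. Its log2 fold change was 0.17 in DM (SE 0.081, adjusted p = 0.126, limma) and 0.71 in TM (SE 0.081, adjusted p = 1.92e-05, limma), and TM was above DM by 0.54 (adjusted p = 0.000217, limma), past 1.5-fold without the third DM array (0.62) or the second TM array (0.59). Phyhd1, a relative of Phyh outside the 40 genes, was called higher in TM than in WT, by 1.32 (adjusted p = 5.37e-09, limma), and than in DM, by 0.92 (adjusted p = 2.08e-07, limma). Asph, the aspartyl hydroxylase of the endoplasmic reticulum that acts on EGF-like domains, was 10.02, 10.03 and 9.98 in WT, 9.52, 9.60 and 9.61 in DM, and 9.82, 9.85 and 9.94 in TM. It was lowest in DM, with -0.43 (adjusted p = 5.72e-05, limma), and had -0.14 in TM (adjusted p = 0.0891, limma), with TM above DM by 0.30 (adjusted p = 0.00153, limma). The ribosomal hydroxylase gene Ogfod1 and the related Ogfod2 and Ogfod3 did not pass in any comparison. Bbox1, the carnitine synthesis enzyme of liver and kidney, was the dimmest member, at 5.05 to 5.53 over the 9 arrays, did not pass in any comparison, and has 1 identical value of 5.40 in 4 arrays.

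All 40 genes are on autosomes, but some of the closest relatives of the demethylases are on the sex chromosomes, by which the DM arrays differ from the others. Of 13 measured oxygenases outside the 40 genes, 5 fell and 1 rose in DM, 1 rose in TM, and 4 were higher and 4 lower in TM than in DM. In either direction these were 46.2%, 7.69% and 61.5% of the list, beside 10.9%, 9.15% and 8.29% of all genes. The Y-linked Kdm5d and Uty, relatives of KDM5 and KDM6 enzymes, fell by 1.49 and by 1.74 in DM, with -0.022 and 0.040 in TM. Their X-linked counterparts were above WT in DM. Kdm5c was 10.87, 10.92 and 10.95 in WT, 11.38, 11.42 and 11.41 in DM, and 10.64, 10.55 and 10.48 in TM, 0.49 above WT in DM (adjusted p = 2.23e-05, limma). Kdm6a was 10.09, 10.14 and 10.09 in WT, 10.46, 10.64 and 10.69 in DM, and 9.89, 9.94 and 10.16 in TM, 0.49 above WT in DM (adjusted p = 0.000372, limma). Phf8, an X-linked relative of Kdm7a, was called higher in DM, by 0.60 (adjusted p = 4.1e-06, limma). The autosomal Kdm5b and Kdm7a were also above WT in DM, by 0.53 and 0.33, though the second probe set of Kdm7a gave -0.019. Kdm5a and Kdm6b, also autosomal, had 0.16 and 0.12 in DM and did not pass (adjusted p = 0.0564 and 0.259, limma). The part of the sex difference in these values was not tested. Riox2, an autosomal ribosomal oxygenase, fell by 0.94 in DM.

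**Figure D5:**
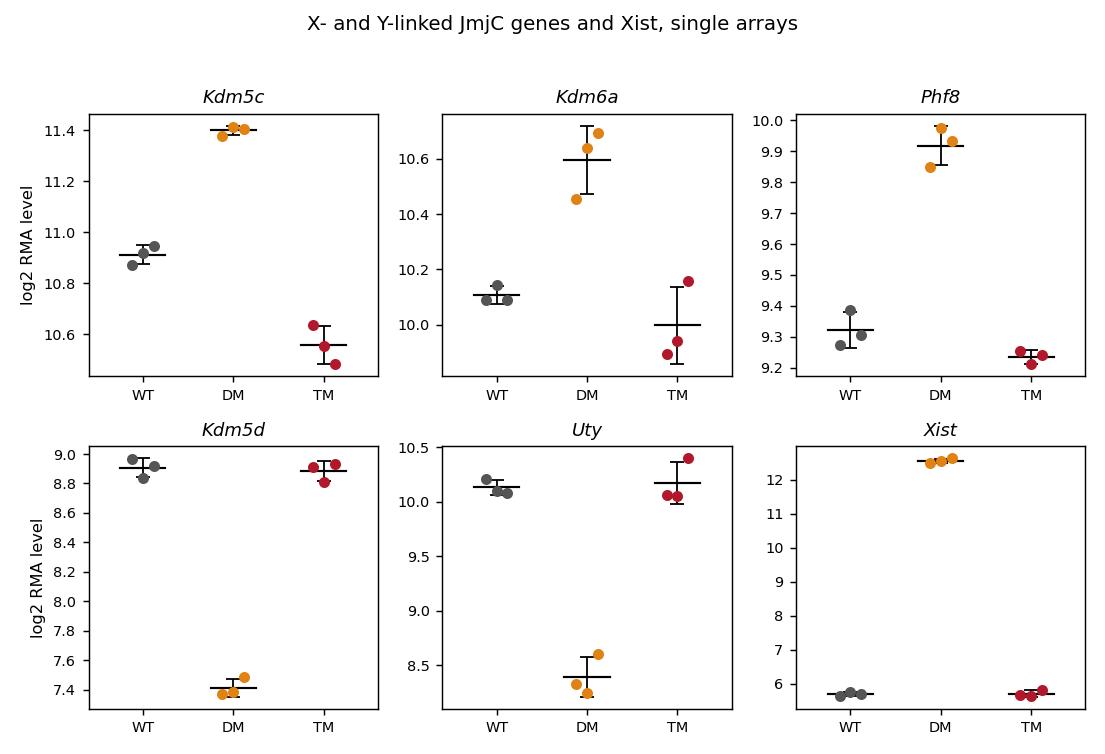
Log2 RMA levels of the X-linked Kdm5c, Kdm6a and Phf8, the Y-linked Kdm5d and Uty, and Xist in WT (grey), DM (orange) and TM (red) MEFs, with a separate y axis for each gene. Each point is an array, and the line and bar give the mean and SD of the 3 arrays. In DM the X-linked genes are higher, the Y-linked genes are lower and Xist is near 12.6 against 5.7 in the others.

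Genes that supply the cosubstrate and the iron, and those that write the marks the enzymes remove, were set beside them. Of 24 measured genes of 2-oxoglutarate, succinate and fumarate metabolism, 1 fell and none rose in DM, and 1 rose and 1 fell in TM. In either direction that was 4.17% in DM and 8.33% in TM, beside 10.9% and 9.15% of all genes. No gene of this list was past 1.5-fold and higher in DM at an unadjusted p under 0.05. Psat1, a serine synthesis enzyme that makes 2-oxoglutarate, fell by 0.99 in DM. Sdhd, a subunit of succinate dehydrogenase, fell by 0.70 in TM, and the alanine transaminase gene Gpt2 rose by 0.62 in TM. Between the mutants 2 genes of this list, Psat1 and Bcat1, were called higher in TM, by 1.10 and 0.76, and none lower. That was 8.33% of the list, beside 8.29% of all genes. Of 11 measured iron handling genes, 1 rose and 1 fell in DM and none was called in TM, by adjusted or unadjusted p. Those called in DM were 18.2% of this list, beside 10.9% of all genes. The iron exporter gene Slc40a1 rose by 1.88 in DM and the endosomal ferrireductase gene Steap3 fell by 1.15. Of 24 measured writers of DNA, RNA and histone methyl marks, 1 rose in DM, none was called in TM against WT, by adjusted or unadjusted p, and 2 were lower in TM than in DM. These were Kmt2c, a methyltransferase of lysine 4 of H3, which rose by 0.63 in DM and was lower in TM than in DM by -0.62, and Dnmt3a, a de novo DNA methyltransferase, which was lower in TM than in DM by -0.66. In either direction 4.17% of the writers were called in DM and 8.33% between the mutants, beside 10.9% and 8.29% of all genes.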

How the data were processed

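RNA of WT, DM and TM MEFs was hybridised to Affymetrix Gene ST arrays. The authors deposited log2 values of RMA, a method that corrects background and makes the arrays' distributions alike, so that a genotype's total RNA signal cannot be read from them. The methods also name GCOS, GeneSpring GX and PLIER. PLIER values were not analysed here. No genome build for the probe sets is given in the sources used here, so probe coordinates are not printed.

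The table holds 35556 probe sets. GEO's platform annotation names a single gene for 21789, several genes for 1621 and nothing for the other 12146. Of the gene identifiers 21698 matched RefSeq, which changed no symbol. For genes with several probe sets (999, among them 4 members) the brightest over the 9 arrays was kept, which left 19938 genes. A single limma model (version 3.58.1, R 4.3.3) took the 9 arrays, leaving 6 residual degrees of freedom, and p-values were two-sided and adjusted over all genes by Benjamini-Hochberg. A call required over 1.5-fold, the limit the methods use, at an adjusted p under 0.05. On data simulated for TM against WT over 19938 genes, 100 of 100 genes shifted by 1 on the log2 scale and 100 of 100 shifted by 2 were called, with 0 false calls. The noise had the spread of arrays within a genotype, so spread between lines was not covered. The largest member difference was 0.90, so changes of the members' size were not covered either. The number of arrays limits the precision. For 754 genes, 1 of them a member, some genotype has the same value on its 3 arrays.

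The members and lists were chosen with earlier results of these data known. Named genes are the called members, the member with the largest change in each class, the mutated and sex-linked genes, and up to 4 called genes of each list, and the other members and genes named were chosen after their values were seen. Promoter windows are from RefSeq (GRCm38.p6). Alternatives were other scalings, probe set rules, tests, thresholds and samples, a filter on dim genes, the replicate number as a block and leaving out single arrays.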

Additional observations from a re-analysis of the deposited data

How the results depend on the processing

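Among the 11 called member differences, 92 of 99 refits with another scaling, probe set rule, filter, variance model, test or sample set kept the call, 7 lost it and none changed sign, and of 66 refits without 1 array 59 kept it. The losses concerned Jmjd1c, Kdm4c and Kdm7a. With median centring no member was called higher and 2 lower in DM, 4 were higher at any fold, 10 HIF targets were called lower, and the members' medians were -0.20 in DM and -0.27 in TM. The DM median was nearer 0 with quantile normalization (-0.061), cyclic loess (-0.041) and the mean of a gene's probe sets (-0.052). Median centring also moved the split of all calls, from 48.2% to 36.6% higher in DM and from 61.1% to 50.6% in TM. With cyclic loess 2 members were called higher in DM and 11 were higher at any fold, and the TM median was -0.12. With the methods' t-test, adjusted by Benjamini-Hochberg, 9 members were lower and 4 higher at any fold in DM, 8 lower and 2 higher between TM and DM, and 2 HIF hydroxylases were lower in each of DM and TM. Of the 62 member differences that passed at any fold, 25 no longer passed with that test, 9 with cyclic loess, 6 with median centring, 5 with 6 arrays in the fit, 4 with quantile normalization and 1 each with the probe set mean and with a trended variance. Without single arrays 5 to 12 of the 40 to 43 concerned no longer passed, the most without the second TM array.

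Without the fold limit, 7 members were higher and 14 lower in DM, 3 and 19 in TM, and 5 and 14 in TM against DM, with 16 and 19 HIF targets lower in DM and TM. With a 2-fold limit no member was called (0 in each direction, limma, adjusted or unadjusted p) and 1 HIF target was lower in DM and 4 in TM. Without single arrays, members called higher were 0 to 2 in DM, 1 to 1 in TM and 0 to 1 between TM and DM, and members called lower were 1 to 2, 3 to 4 and 3 to 4. The DM counts of calls differed without the third WT array, the first DM array or the third DM array, and 1 member was called higher in TM than in DM without the third DM or second TM array. At any fold, 5 to 7, 2 to 3 and 3 to 6 members were higher and 12 to 14, 13 to 18 and 11 to 13 lower, the 3 higher in TM than in DM being without the first DM, first TM or second TM array. The members' median was -0.13 to -0.022 in DM, the latter without the second DM array, -0.22 to -0.17 in TM, and -0.10 to -0.068 between them. HIF hydroxylases lower were 5 to 5 in DM without single arrays and 2 to 4 in TM, and HIF targets called lower 6 to 7 and 6 to 6.

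The labels number the arrays of each genotype 1 to 3. Deviations of same-numbered arrays correlated at -0.24 to 0.17, with 1 of 9 pairs over 0.1, and those of differently numbered arrays at -0.36 to 0.25. The numbers thus showed no pairing, but deviations from means of 3 arrays cannot exclude it. With the replicate number as a block, 6 members were higher in DM and 2 in TM at any fold, 12 were lower in TM than in DM, no call of a member was lost, and 4 of the 62 differences no longer passed.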
